A study of Homo sapiens with 4 samples.

Results

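The BCL2 family decides whether a cell's mitochondria release the proteins that start apoptosis. Survival members hold the pathway shut, BAX and BAK1 open the outer mitochondrial membrane, and the BH3-only members, named for the one short domain they share with the rest, sense stress and tip that contest by binding the others. Neuroblastoma is a tumour of the sympathetic lineage in which survival members of this family are known drug targets. The 10 genes described here were taken as a given list: the survival members BCL2, BCL2L1, BCL2L2 and MCL1, and 6 death members, namely the effectors BAX and BAK1 and the BH3-only genes BCL2L11, BID, BAD and PMAIP1. They are 10 of 17687 named genes measured, and each is represented by 1 probe set.

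The study used SK-N-AS, a human neuroblastoma cell line in long-standing laboratory use, and read its transcripts on Affymetrix arrays that probe whole transcripts. Cells exposed to BG-P400-TAT at 30 µM for 48 h (treated, 2 arrays) were compared with cells that received phosphate-buffered saline for the same time (untreated, 2 arrays). The series title presents the compound as aimed at both the norepinephrine transporter and integrin αvβ3, and the study asked what it does to gene expression in these cells. All 4 arrays come from 1 cell line, and the design text calls the samples biological replicates without saying how the cultures were kept apart, so p-values measure only the spread between these arrays.

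The arrays had nearly equal medians, at a log2 expression of 6.51 and 6.49 on treated replicates 1 and 2 and 6.51 and 6.50 on untreated replicates 1 and 2. Background was read from the negative-control probe sets: a gene counts as above background where its 4-array mean exceeds 6.96, their 95th percentile, and each array also has its own limit, at 7.19 and 7.25 on the treated and 7.31 and 7.64 on the untreated arrays. Untreated replicate 2, which has the highest of these limits, also stood farthest from the others, with median absolute log2 differences of 0.237 to 0.244 over all probe sets, against 0.193 to 0.208 for the pairs without it. Of the sympathetic lineage markers, 6 of the 8 measured were above background, among them HAND2, GATA3, ISL1 and PHOX2A. TH and DBH, the enzymes of catecholamine synthesis, were below every array's own limit. In that list 6 were higher in treated cells and 2 lower. PHOX2A had its largest difference, with 8.57 and 8.51 on the treated and 8.12 and 7.80 on the untreated arrays, and did not pass the test. All 8 mesenchymal state markers were above background, and their mean log2 expression was 10.60 and 10.50 on the treated and 10.41 and 10.14 on the untreated arrays, with a median difference of 0.33 and no gene past the test. None of the 3 endothelial or 2 measured Schwann cell markers was above background. Among 4 leukocyte markers CD3E and LYZ were below background and CD68 and PTPRC above it. The probe set that the platform annotation assigns to PTPRC, a leukocyte surface phosphatase, had a log2 expression of 12.71 and 12.57 on the treated and 12.75 and 12.80 on the untreated arrays, and neither that assignment nor the part of this signal in the other results was tested. Of 4 epithelial markers EPCAM and CDH1 were below background, and KRT8 and KRT18, keratins, were above it. KRT18 had 8.84 and 8.73 on the treated and 8.45 and 7.79 on the untreated arrays and did not pass the test.

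SK-N-AS cells held transcripts of both sides of the family above background, in either condition. All 4 survival members were above background, and so were 4 of the 6 death members, BAX, BAK1, BID and BAD. These 8 genes also exceeded each array's own limit on all 4 arrays, where 43.3% of the named genes did so, and 49.3% of the named genes were above background by their mean. The other 2 members, the BH3-only genes BCL2L11 and PMAIP1, were below every array's own limit. None of the 10 differed between treated and untreated cells in limma's test (0 of 10 at an adjusted p under 0.05, against a background of 0% of 21448 probe sets; 0 of 10 at an unadjusted p under 0.05, against 5.08% of these and 2.49% of the 9960 above background). The smallest adjusted p among the members was 0.949.

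**Figure D1:**
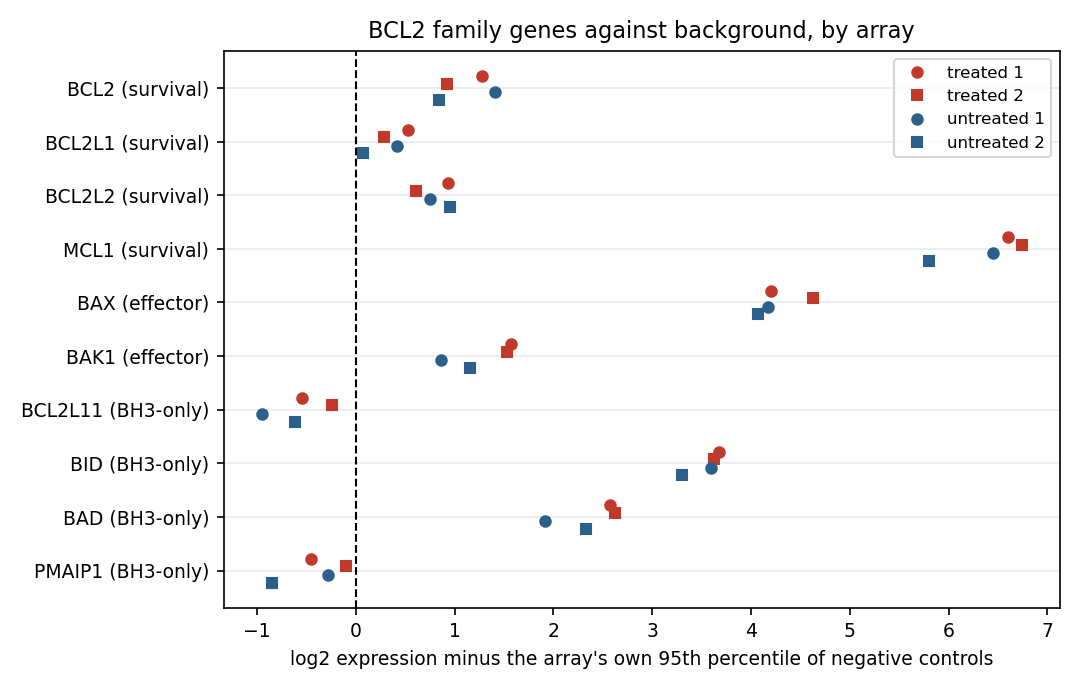
Each row is a BCL2 family gene, with its role in brackets, and each point is 1 array, red for treated and blue for untreated, with circles for replicate 1 and squares for replicate 2. The horizontal axis is the log2 expression minus that array's own 95th percentile of the negative-control probe sets (dashed line at 0). MCL1 lies 5.80 to 6.74 above the limit, and BCL2L11 and PMAIP1 lie below it on all 4 arrays.

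Among the survival members, MCL1 encodes a short-lived protein that holds BAK1 and BH3-only proteins in check. Its log2 expression was 13.79 and 13.99 on the treated arrays, against 13.77 and 13.45 on the untreated arrays. Both treated values lay above both untreated ones, by 0.023 at the closest pair, while the untreated arrays differed from each other by 0.32. The difference, treated minus untreated, was 0.28 on the log2 scale with a 95% confidence interval from -0.21 to 0.77 (SE 0.21, limma adjusted p = 0.953). As a fold this was 1.21, with an interval from 0.866 to 1.70. Leaving out each array in turn gave log2 differences of 0.12 to 0.44.

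BCL2, the founding member of the family and the target of BH3-mimetic drugs, leaned the other way. It had a log2 expression of 8.47 and 8.17 on the treated arrays, against 8.72 and 8.48 on the untreated arrays. Both treated arrays were below both untreated arrays, but treated replicate 1 and untreated replicate 2 were only 0.0097 apart. Its difference was -0.28 (interval -0.77 to 0.21, limma adjusted p = 0.954), and it ran from -0.43 to -0.13 when each array was left out in turn.

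BCL2L2, which encodes BCL-w, a survival protein known for its part in neurons and spermatogenesis, had the lowest p of the 10 members. The log2 expression of BCL2L2 was 8.12 and 7.86 on the treated arrays, against 8.07 and 8.59 on the untreated arrays. The groups overlapped, since treated replicate 1 was above untreated replicate 1. Its difference was -0.34 (interval -0.91 to 0.23, limma adjusted p = 0.949), and it was -0.60 without untreated replicate 1 and -0.077 without untreated replicate 2. The neighbouring read-through gene BCL2L2-PABPN1 shares exons with BCL2L2 and has a probe set of its own, at 7.65 and 7.66 on the treated and 7.68 and 8.06 on the untreated arrays, so the signal of the pair cannot be fully separated.

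BCL2L1, which encodes BCL-XL, was not far above background on any array. Its log2 expression was 7.72 and 7.53 on the treated arrays, against 7.73 and 7.71 on the untreated arrays. On untreated replicate 2 BCL2L1 exceeded the array's own limit by 0.068. The groups overlapped by 0.0055, and the difference was -0.10 (interval -0.54 to 0.35), -0.19 without treated replicate 1 and -0.0038 without treated replicate 2. The BCL2L1 probe set is annotated to 2 transcripts and that of MCL1 to 3. Both genes are known to make long survival forms and short forms that promote death, and a single probe set does not tell such forms apart.

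The effectors BAX and BAK1 form the pores that release cytochrome c. BAX had a log2 expression of 11.39 and 11.87 on the treated arrays, against 11.48 and 11.71 on the untreated arrays. The untreated values lay between the treated ones, and the difference was 0.033 (interval -0.51 to 0.58). Cyclic loess normalization turned its sign (-0.0049), as did leaving out untreated replicate 1 (-0.082) or treated replicate 2 (-0.21).

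BAK1 had a log2 expression of 8.76 and 8.78 on the treated arrays, against 8.18 and 8.80 on the untreated arrays. Untreated replicate 1 alone was low, and the other 3 arrays lay within a narrow range. The difference was 0.28 (interval -0.30 to 0.86), 0.59 without untreated replicate 2 and -0.031 without untreated replicate 1, so 1 array decided both its size and its sign.

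The RefSeq sequence before the start of each gene (GRCh38.p14, 250 bases) was read for the family, since BAX carries a feature that few genes have. The table held 8 of the 10 members, and BCL2L2 and MCL1 were not analysed for sequence here. BAX had 4 copies of the E-box letters CACGTG, a palindrome that MYC and other helix-loop-helix factors are known to bind. Of 35116 promoter windows, 6.34% held at least 1 such E-box and 0.0142% held 4 or more. Besides BAX, BID held the letters once in 2 of its 5 windows, so the E-box was in 2 of the 8 genes. A match describes the letters and not binding. The window of BAX lies at chr19:48954625-48954874 on the plus strand and is shown with its E-boxes in capitals.
BAX: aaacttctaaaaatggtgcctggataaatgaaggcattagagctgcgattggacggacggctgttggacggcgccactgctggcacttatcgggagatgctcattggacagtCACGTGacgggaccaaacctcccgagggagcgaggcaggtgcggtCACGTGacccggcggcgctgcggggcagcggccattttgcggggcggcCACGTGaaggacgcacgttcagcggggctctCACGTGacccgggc
MYC itself had a log2 expression of 8.72 and 8.52 on the treated arrays, against 8.44 and 8.55 on the untreated arrays, with overlapping groups and a difference of 0.12 (interval -0.33 to 0.57).

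BID and BAD were the detected BH3-only members. BID links death receptors to mitochondria, since caspase-8 cleaves it into its active form. It was the most even of the members, at a log2 expression of 10.86 and 10.87 on the treated arrays, against 10.91 and 10.94 on the untreated arrays. Both treated arrays lay below both untreated arrays, by 0.035 at the closest pair, and the difference was -0.057 (interval -0.48 to 0.37). The interval is wide beside the arrays' own spread because limma draws the variance of each gene towards that of the other genes.

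BAD, which neutralises BCL2 and BCL-XL until survival kinases phosphorylate it, had a log2 expression of 9.76 and 9.87 on the treated arrays, against 9.23 and 9.97 on the untreated arrays. As in BAK1, untreated replicate 1 alone was low. The difference was 0.22 (interval -0.42 to 0.86), 0.59 without untreated replicate 2 and -0.15 without untreated replicate 1.

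BCL2L11, which encodes BIM, the BH3-only protein that can engage every survival member, was not above background. Its log2 expression was 6.65 and 7.00 on the treated arrays, against 6.36 and 7.03 on the untreated arrays, which is 0.24 to 0.95 below the arrays' own limits. PMAIP1, which encodes NOXA, the BH3-only protein best known for antagonising MCL1, had 6.74 and 7.14 on the treated arrays, against 7.03 and 6.79 on the untreated arrays. Its mean of 6.92 was just under the limit of 6.96, and it was 0.10 to 0.85 below the arrays' own limits. Values in this range give no fold, and they do not show that the transcripts were absent. Both genes would count as detected at the 90th percentile of the negative controls, 6.24, whereas at the 99th percentile, 9.42, the detected members would be MCL1, BAX, BID and BAD.

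The promoters of the members varied widely in CpG content, and a pair of unlike windows is shown. PMAIP1 and BCL2L11, below background, had 36 and 34 CpG dinucleotides in their 250 bases, more than 95.1% and 93.2% of all windows, whereas BAK1, above background, had 5. The windows of the other genes above background held 4 to 30. The median over all windows was 11. CpG-dense promoters are typical of widely expressed genes. CG is in capitals in the windows of BAK1 (chr6:33580277-33580526, minus strand) and PMAIP1 (chr18:59899746-59899995, plus strand), both in GRCh38.p14.
BAK1: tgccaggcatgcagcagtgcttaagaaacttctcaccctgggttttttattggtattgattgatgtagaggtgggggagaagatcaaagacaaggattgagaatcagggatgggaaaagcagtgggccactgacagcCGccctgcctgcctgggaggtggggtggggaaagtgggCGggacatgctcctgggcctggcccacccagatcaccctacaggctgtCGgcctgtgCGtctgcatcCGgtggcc
PMAIP1: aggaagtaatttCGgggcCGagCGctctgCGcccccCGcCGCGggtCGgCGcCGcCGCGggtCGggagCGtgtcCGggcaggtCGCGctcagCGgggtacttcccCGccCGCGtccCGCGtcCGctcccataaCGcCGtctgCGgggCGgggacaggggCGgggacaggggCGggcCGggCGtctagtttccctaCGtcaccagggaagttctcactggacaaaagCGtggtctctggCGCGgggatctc
On either strand, the GC box GGGCGG was found in 6 of the 8 genes with a window (42.6% of all windows), CCAAT in 4 (32% of all windows) and TATAAA in 1, BCL2L1 (10.7% of all windows). The cyclic AMP response element TGACGTCA was in none of the 8 (1.65% of all windows). BCL2L1 and BAD have 2 windows each and BID 5, some of which overlap. A gene was counted where any of its windows held the letters, so counts of genes and shares of windows are unlike measures.

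Across the 8 detected members, the treated and untreated arrays were separated in 3, MCL1 with treated above and BCL2 and BID with treated below. Of the 9960 probe sets above background, 32.3% were separated, 20.9% with treated above and 11.5% with treated below, so 3 of 8 is near the background share. The differences were positive in 4 and negative in 4, with a median of -0.012, against a median of 0.038 over all probe sets above background. All 8 had a confidence interval within 2-fold in both directions, as did 95.3% of the probe sets above background. The bounds reached from 0.533-fold, for BCL2L2, to 1.82-fold, for BAK1. In 5 of the 8, the untreated arrays differed from each other by more than the treated and untreated means did. The share of all probe sets that did so was not computed. Over the probe sets above background, the median absolute log2 difference was 0.203 between the untreated arrays and 0.125 between the group means.

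**Figure D2:**
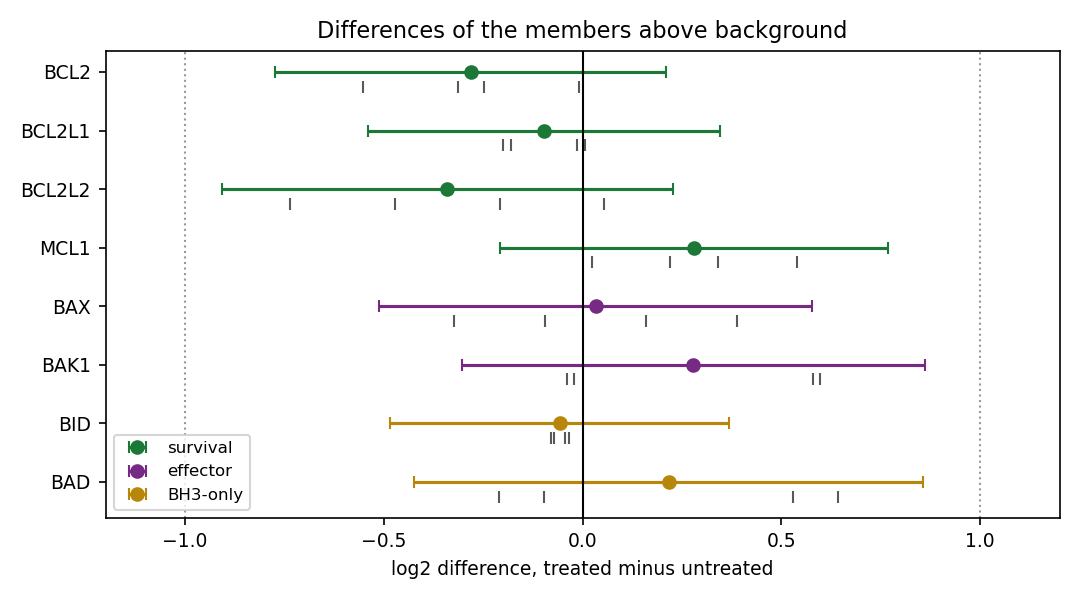
Each row is a BCL2 family gene above background, and the horizontal axis is the log2 difference, treated minus untreated. Points and bars are limma's difference with its 95% confidence interval, coloured by role, the small ticks are the 4 single differences between 1 treated and 1 untreated array, and the dotted lines mark 2-fold. All 8 intervals cross 0, and for BAK1 and BAD the ticks fall in separate pairs on either side of 0.

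The balance between the survival and death members was followed as the mean log2 expression of the 4 survival members minus that of the 4 detected death members. The level of this value has no meaning of its own, since probe sets differ in brightness, but its difference between groups does. The value was -0.67 and -0.96 on the treated arrays, against -0.38 and -0.80 on the untreated arrays. The groups overlapped, because untreated replicate 2 lay between the treated arrays. The means were -0.82 ± 0.21 in treated and -0.59 ± 0.30 in untreated cells (SD, n = 2 each), a difference of -0.23, smaller than the spread within the untreated group. Without untreated replicate 1 the difference was -0.018, and without untreated replicate 2 it was -0.44.

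Each side of the balance was also followed alone. The survival mean was 9.52 and 9.39 on the treated arrays, against 9.57 and 9.56 on the untreated arrays, a difference of -0.11. The death mean was 10.19 and 10.35 on the treated arrays, against 9.95 and 10.36 on the untreated arrays, a difference of 0.12. Untreated replicate 1 was the low array of the death mean, through BAK1 and BAD.

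**Figure D3:**
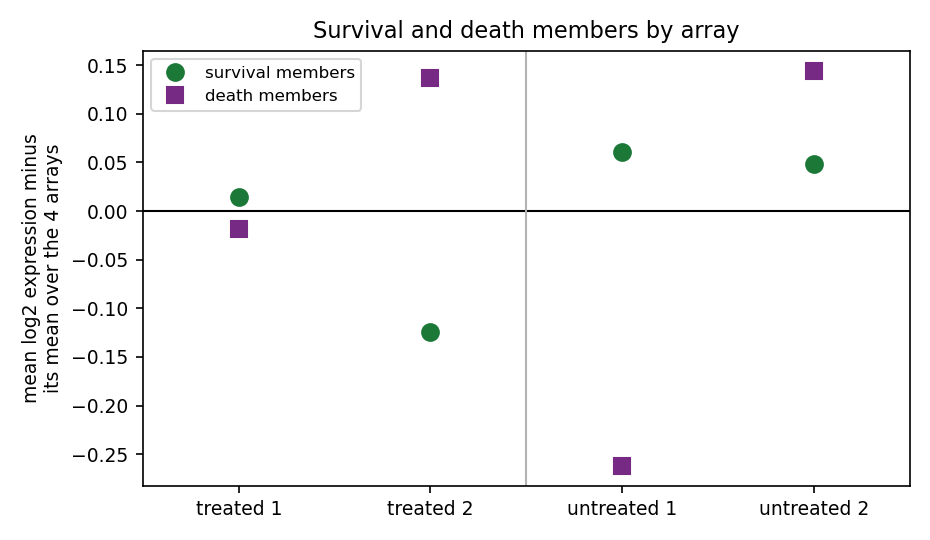
The 4 positions on the horizontal axis are the arrays, and the vertical axis is the mean log2 expression of the 4 survival members (green circles) or the 4 detected death members (purple squares), each minus its own mean over the 4 arrays. The death members lie at -0.26 on untreated replicate 1 and at 0.14 on untreated replicate 2, on either side of the treated arrays.

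The survival members did not all lean the same way against the death members. Of the 16 log2 ratios of a survival member to a detected death member, 12 were lower in treated cells and 4 higher. All 4 that were higher had MCL1 on top, from 0.0020 against BAK1 to 0.34 against BID. The lowest were BCL2L2 against BAK1, at -0.62, and BCL2 against BAK1, at -0.56. These ratios share their members, and they were not tested. With medians over members in place of means, the difference in balance was -0.39. Such medians rest on the members of middle brightness alone, BCL2 and BCL2L2 against BID and BAD. With MCL1 left out of the survival mean, an alternative chosen after the data were seen, it was -0.36.

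The genes around the family were described in 8 lists of 100 genes, of which 92 were measured. None of the 92 passed limma's test at an adjusted p under 0.05, where the smallest adjusted p was 0.948. In the same test 1 had an unadjusted p under 0.05 (1.09% of the 92, against 5.08% of all probe sets and 2.49% of those above background). In treated cells 59 were higher and 33 lower, with positive medians in 6 of the 8 lists, and 49.8% of all named genes were higher. The median difference over all named genes was -0.00068, and over those above background 0.040. Of the 92, 63 were above background, a larger share than the 49.3% of all named genes, so the 2 sets are not alike in level. The genes named below are among the 4 of each list with the smallest p among its genes above background, and none of them passed. The exceptions are genes listed as below background or without a value.

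The other BCL2 family genes comprised further members and relatives. Of 14 measured, 6 were above background, and BCL2A1, BCL2L10, BOK, BMF, BIK, HRK, BCL2L14 and BCL2L15 were below every array's own limit. The BH3-only genes BID and BAD were thus above background, and BCL2L11, PMAIP1, BMF, BIK and HRK were not. This is no full tally of genes with such a domain, and BBC3, also in the list, had no value. In the list 10 were higher and 4 lower, with a median of 0.085. BCL2L13, a mitochondrial membrane protein also known as a mitophagy receptor, had a log2 expression of 10.75 and 10.28 on the treated arrays, against 10.36 and 9.71 on the untreated arrays, a difference of 0.48 (interval -0.18 to 1.15) with overlapping groups, 0.81 without untreated replicate 1 and 0.16 without untreated replicate 2. BNIP3L, a mitophagy receptor, had a difference of -0.077 (interval -0.56 to 0.41), and MOAP1, a BAX-binding protein, 0.21 (interval -0.34 to 0.75) while above its array's own limit on 1 array.

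Downstream of the pore, 11 of the 13 measured genes of the mitochondrial channel and death pathway core were above background, 11 were higher and 2 lower, and the median was 0.14. VDAC2, an outer membrane channel that holds BAK1 and BAX at mitochondria, had a log2 expression of 14.70 and 14.95 on the treated arrays, against 14.69 and 14.59 on the untreated arrays, a difference of 0.19 (interval -0.27 to 0.64). The same quantity was 0.25 for VDAC3, another channel of that family, 0.23 for AIFM1, a flavoprotein released from mitochondria, and 0.32 for ENDOG, a mitochondrial nuclease. With an array left out these ran from 0.061 to 0.31 for VDAC2, 0.0064 to 0.49 for VDAC3 and 0.087 to 0.37 for AIFM1, and the lowest values of VDAC3 and AIFM1 were those without untreated replicate 2. The caspase inhibitors XIAP, BIRC2, BIRC5 and BIRC6 were all above background, 2 higher and 2 lower, with a median of 0.072. BIRC6 had the smallest p of these, with a difference of 0.19 (interval -0.24 to 0.62).

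In the death receptor arm, which reaches the family through BID, 6 of the 10 measured genes were above background, 6 were higher and 4 lower, and the median was 0.13. TRADD, an adaptor of the TNF receptor, had the lowest p of all the listed genes. Its log2 expression was 7.22 and 7.75 on the treated arrays, against 6.24 and 6.81 on the untreated arrays. Both untreated values were under their arrays' own limits. The treated values were over theirs, at 7.22 against a limit of 7.19 and 7.75 against 7.25. The measured difference was 0.96 (interval 0.30 to 1.61, limma adjusted p = 0.948). It is 0.52 with values under 6.96 set to that limit, and 0.0062 with the untreated values set to their arrays' own limits. The measured difference was 0.67 to 1.24 with an array left out. TNFRSF10B, a TRAIL receptor, had 8.36 and 8.51 on the treated arrays, against 8.08 and 8.12 on the untreated arrays, a difference of 0.34 (interval -0.10 to 0.77). CASP8, the protease that cleaves BID, had a difference of 0.14 (interval -0.29 to 0.57).

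The genes that set protein levels and activity of the members were read next. In the list on MCL1 and NOXA protein turnover 10 of 11 were above background, 4 were higher and 7 lower, with a median of -0.11. FBXW7, a ubiquitin ligase subunit that marks MCL1 for degradation, had a log2 expression of 8.41 and 8.03 on the treated arrays, against 8.54 and 8.49 on the untreated arrays, a difference of -0.29 (interval -0.78 to 0.20). CDK9, the kinase of transcription elongation on which short-lived transcripts such as MCL1 depend, had 0.18 (interval -0.27 to 0.63). UBE2J2, a ubiquitin-conjugating enzyme gene, had the smallest p of the list, with a difference of 0.38 (interval -0.16 to 0.92). UBE2F had 0.26 (interval -0.21 to 0.73). Leaving out each array in turn gave -0.48 to -0.10 for FBXW7, 0.13 to 0.62 for UBE2J2, 0.13 to 0.39 for UBE2F and 0.086 to 0.28 for CDK9. In the list on BAD and BIM phosphorylation 16 of 20 were above background, 14 were higher and 6 lower, with a median of 0.094. The list's mean log2 expression was 11.20 and 11.24 on the treated arrays, against 11.25 and 10.99 on the untreated arrays, so untreated replicate 2 alone was low. AKT1, a survival kinase that phosphorylates BAD, had 11.23 and 11.39 on the treated arrays, against 11.09 and 10.58 on the untreated arrays, a difference of 0.47 (interval -0.07 to 1.02) that was 0.22 without untreated replicate 2. PIM2, another BAD kinase, had 0.48 (interval -0.18 to 1.13), with untreated replicate 2 below its own limit, and 0.15 to 0.80 with an array left out, the lowest without untreated replicate 2.

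Transcriptional inducers of the members had a median of 0.12, with 7 of 9 measured genes higher, 2 lower and 4 above background. ATF4, a stress-induced factor that can act on PMAIP1, had a difference of 0.22 (interval -0.26 to 0.69). That of FOXO3, an activator of BCL2L11, was 0.11 (interval -0.45 to 0.67). E2F1, a cell cycle factor that can induce BH3-only genes, had 0.19 (interval -0.26 to 0.65). E2F1 was above its array's own limit on the 2 treated arrays alone. Its untreated values were 7.28 and 7.51, under limits of 7.31 and 7.64. With an array left out the differences ran from 0.055 to 0.38 for ATF4, -0.17 to 0.40 for FOXO3 and 0.081 to 0.31 for E2F1. Among p53 targets outside the family 5 of 11 were higher, 6 lower and 6 above background, with a median of -0.072. TP53INP1, a p53-induced stress protein, had a log2 expression of 6.63 and 6.78 on the treated arrays, against 7.73 and 6.97 on the untreated arrays. It was above its array's own limit on untreated replicate 1 alone, and its difference was -0.64 (interval -1.29 to 0.0092), -0.39 with values under 6.96 set to that limit, -0.26 without untreated replicate 1 and -1.02 without untreated replicate 2.

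**Figure D4:**
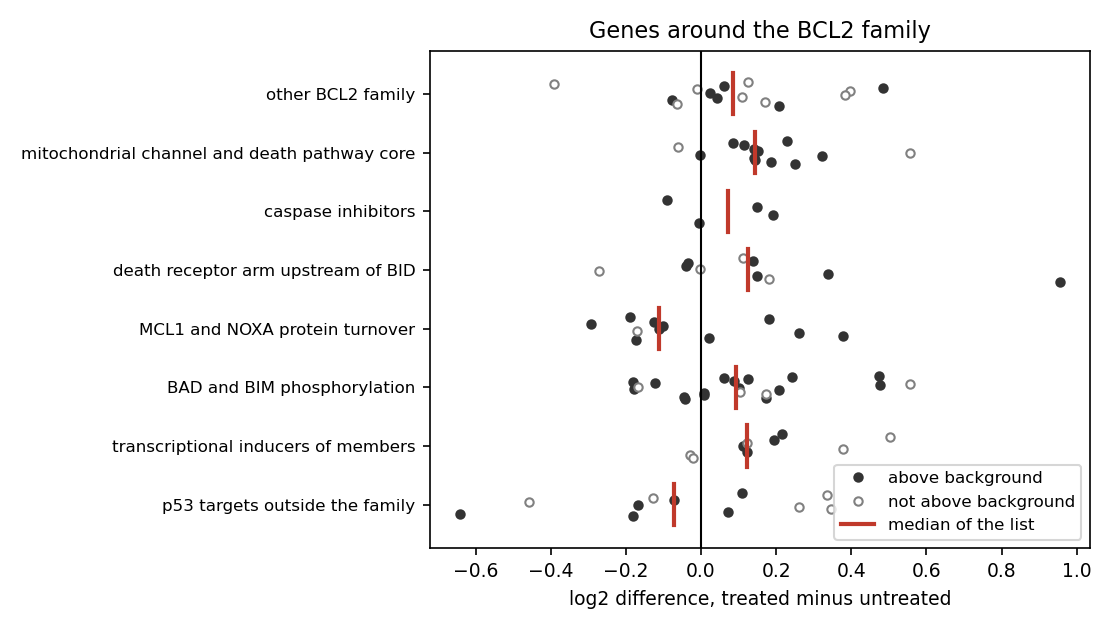
Each row is a list of genes around the BCL2 family, each point is a gene, and the horizontal axis is its log2 difference, treated minus untreated. Filled points are above background by their 4-array mean, open points are not, and the red bars are the medians over all measured genes of a list, from -0.11 for MCL1 and NOXA protein turnover to 0.14 for the mitochondrial channel and death pathway core.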

How the data were processed

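The authors deposited 1 log2 value per probe set and array, made with RMA in Transcriptome Analysis Console 4.0.1.36, per the submitters' processing notes. RMA equalises the arrays' distributions, which would hide a shift common to most transcripts. That the scale is log2 was inferred from the values' range, and the genome build was not given in the sources used here. The 2903 control probe sets were left out, and all other 21448, dim ones included, were tested. Of these, 17709 had 1 symbol, and the brightest was used for a gene with several.

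The comparison used limma 3.58.1 (lmFit, then eBayes) under R 4.3.3, two-sided, with group as the only term and Benjamini-Hochberg adjustment over all 21448 at 0.05 (2 residual and 4.90 prior degrees of freedom). Intervals are 95% intervals of that fit. The fit was also run on simulated independent arrays drawn from its own variance model. Such a run cannot check the intervals on the real arrays, and nothing is concluded from it. An exact permutation test of 2 arrays against 2 cannot give a two-sided p below 0.333. The background limit is the 95th percentile of 612 negative-control sets. The number of arrays limits the precision.

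Members, lists and the background limit were chosen with earlier results of these data known. Named genes were the 10 members and up to 4 genes of each list, those with the smallest p above background. Listed genes without a value were not analysed here. Genes of like pattern were not sought, since 4 arrays are too few. Alternatives were other normalizations, filters on dim probe sets, a floor, other variance moderation, a replicate block and each array left out. Differences between single arrays and the balance without MCL1 or on deviations were added after the data were seen. Promoter sequences are from RefSeq (GRCh38.p14).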

Additional observations from a re-analysis of the deposited data

How the results depend on the processing

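No member and no probe set passed the adjusted threshold under any of 15 alternatives. The smallest adjusted p over all probe sets was 0.331 and that of the members 0.416, both without untreated replicate 1. With the replicate number as a block, which pairs arrays by their label alone, 0 members passed (smallest limma adjusted p 0.934). The deviations of replicates 1 of both groups from their group means correlated at 0.022 across genes above background. The count of members above background was 4 at the 99th percentile of the negative controls, against 8 at the 95th and 10 at the 90th. The difference in balance was negative in each alternative and ran from -0.44 to -0.018 with an array left out. Median centring, the floor, averaging a gene's probe sets and the use of deviations left it at -0.23. Settings that left it unchanged are no measure of how stable its sign was. Single arrays did not all keep the sign, since the balance was -0.67 on treated replicate 1 and -0.80 on untreated replicate 2.

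Among 40 genes, 17 of 600 recomputed differences changed sign, and none of these genes passed with every array in the fit. Many of the 600 could not change sign. Filters on dim probe sets, other variance moderation and a replicate block left each difference as it was. So did averaging a gene's probe sets or keeping the control sets. The share of 600 is therefore no measure of how stable the signs were. Apart from BAX after cyclic loess, every change of sign came from leaving out an array. Leaving out each array in turn gave -0.21 to 0.27 for BAX, -0.031 to 0.59 for BAK1, -0.15 to 0.59 for BAD, -0.065 to 0.18 for BCL2L12, -0.22 to 0.071 for BNIP3L and -0.051 to 0.47 for MOAP1. It gave -0.037 to 0.68 for ENDOG, -0.29 to 0.28 for XIAP, -0.36 to 0.18 for BIRC2, -0.17 to 0.40 for FOXO3, -0.057 to 0.28 for AEN, -0.38 to 0.040 for RRM2B and -0.38 to 0.016 for ZMAT3. BAX was also at -0.0049 after cyclic loess. The cause was not tested. Signal over background limits BCL2L11 and PMAIP1, for which no difference is given.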
